A study of Citrus maxima with 12 samples.

Results

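The genes described here had less messenger RNA in diseased than in control fruit of the pomelo cultivar Jinsha, while their mean level in the cultivar Jinlan changed little with the disease. They were chosen by a rule on group means of FPKM (reads per gene, corrected for gene length and for how much of each library was sequenced). The change of a cultivar was log2((diseased mean + 1)/(control mean + 1)). A member had a change of -1 or less in Jinsha, a change between -0.5 and 0.5 in Jinlan, and a control Jinsha mean of 5 FPKM or more. The rule was met by 265 of the 32863 gene identifiers in the table, which is 0.806%.

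Pomelo (Citrus maxima) is a large-fruited citrus, and the series concerns yellow spot disease of Jinggang honey pomelo. RNA from fruit was sequenced in 4 groups of 3 libraries: diseased Jinsha, control Jinsha, diseased Jinlan and control Jinlan. The sources used here name replicate biosamples, but give neither the part and age of the fruit, nor the cause and stage of the disease, nor whether replicates came from separate fruits or trees. Diseased plant tissue commonly shifts its transcripts between growth, metabolism and defence, and cultivars of one species can differ both in how far they shift and in the levels they start from. In RNA from fruit tissue, fewer cells of a type and less RNA per cell cannot be told apart. The table gives identifiers without names, so no function is stated for any gene, and the labelled tissue could not be checked against marker genes.

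The 12 libraries had 16054 to 16456 genes at or above 1 FPKM, and their FPKM values summed to between 550055 and 575107. Tests were made with limma on the 17120 genes that reached 1 FPKM in 3 or more libraries, and every one of the 265 members was among them. Its log2 fold changes average the log2(FPKM + 1) of single libraries and can differ from the changes in the rule, which take the log2 of group means. The highest Jinlan log2 fold change of a member was 1.11, against a highest Jinlan change of 0.483 by the rule. A gene is called where the p-value adjusted by the Benjamini-Hochberg method was below 0.05. Calls were common across the table, so counts of members called are printed beside the share of all tested genes.

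Among the 753 genes with a Jinsha control mean of at least 5 FPKM and a Jinsha change of -1 or less, the members made up 35.2%. Of the others, 385 had a Jinlan change below -0.5 and 103 had one above 0.5. The plot of the changes in both cultivars shows the members as a block cut from a continuous cloud. At the edge set by the Jinsha change, the last member had -1.001 and the nearest gene outside had -0.998. The Jinlan limits fell between -0.497 inside and -0.501 outside on the lower side, and between 0.483 and 0.5001 on the upper side. The member with the lowest control level had 5.02 FPKM in the mean of control Jinsha fruit, and the nearest gene outside had 4.98 FPKM.

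**Figure D1:**
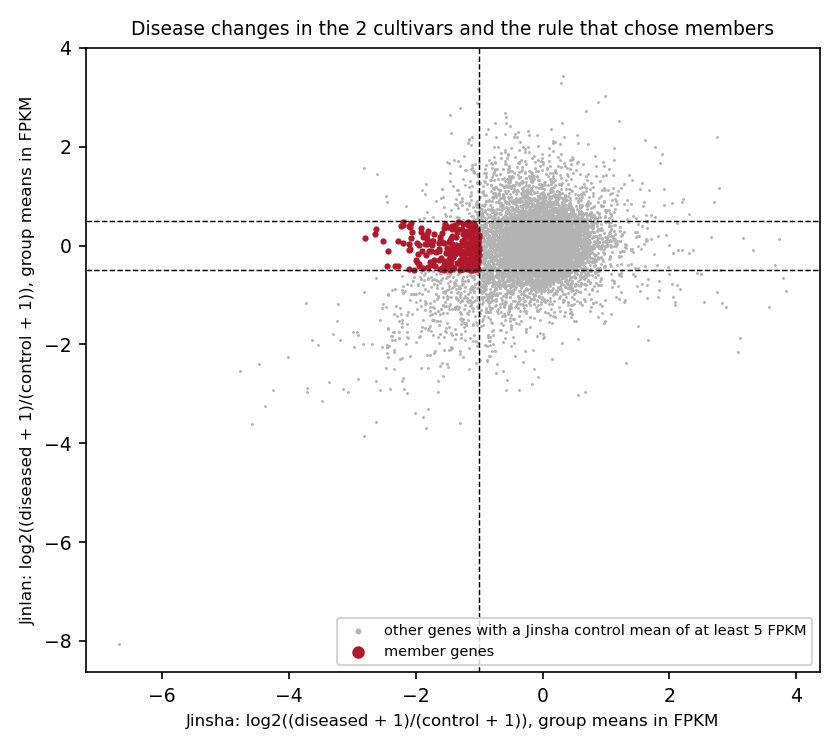
Change with disease in Jinsha (x axis) and Jinlan (y axis), each as log2((diseased mean + 1)/(control mean + 1)) of FPKM, for all genes with a Jinsha control mean of at least 5 FPKM. Dashed lines mark the limits of the rule at -1, -0.5 and 0.5; the 265 members (red) fill the rectangle they enclose and grey points continue above, below and to the right of it.

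The members' summed expression was 4353, 4250.4 and 4280.2 FPKM in diseased Jinsha libraries, against 11103, 11197 and 10857 FPKM in control Jinsha libraries. In Jinlan it was 8548, 8687 and 8261 FPKM in diseased libraries, against 9373, 9446 and 9037 FPKM in control libraries. No group's libraries overlapped with those of another, and both Jinlan groups lay between the Jinsha groups. The ratio of the diseased to the control mean was 0.389 in Jinsha and 0.915 in Jinlan, and the rule had fixed that both would be of about this size. As a share of the library total, the members held 0.763 ± 0.0253% in diseased and 1.94 ± 0.0346% in control Jinsha fruit (SD, n = 3 each). In Jinlan they held 1.51 ± 0.0391% in diseased and 1.62 ± 0.0233% in control fruit (SD, n = 3 each).

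**Figure D2:**
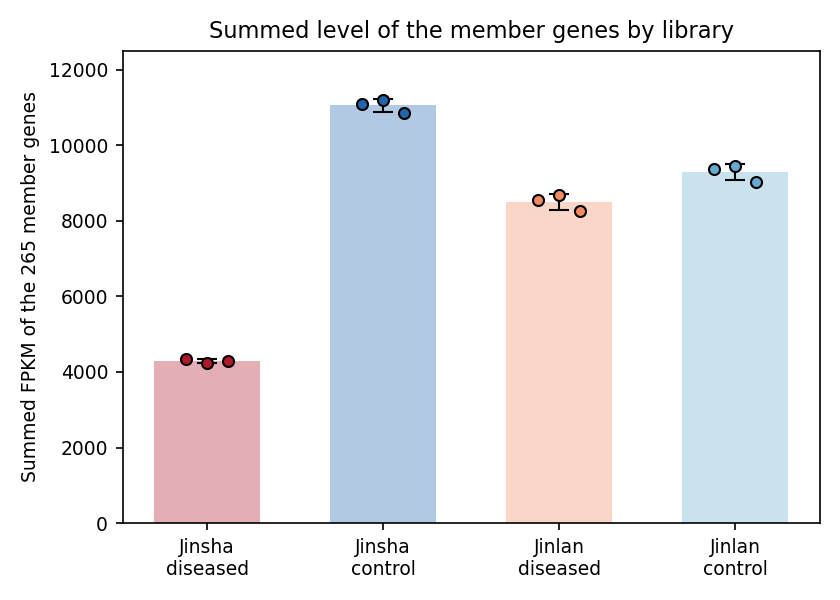
Summed FPKM of the 265 members in each library (points), with the group mean (bar) and SD over 3 libraries (error bar). Diseased Jinsha libraries sit between 4250.4 and 4353 FPKM, control Jinsha libraries between 10857 and 11197 FPKM, and all 6 Jinlan libraries between 8261 and 9446 FPKM.

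A small set of abundant genes carried much of this sum. The 24 members whose control Jinsha mean reached 100 FPKM held 51.8% to 54% of the members' sum in diseased and 49.3% to 50.6% in control Jinsha libraries. In Jinlan they held 50.1% to 51.1% in diseased and 51.2% to 52.7% in control libraries. Their share of the sum was thus close in all 4 groups.

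The 3 members with the highest control Jinsha means showed 3 different relations between the cultivars. The first had 422, 354 and 395 FPKM in diseased Jinsha libraries and 963, 1097 and 853 FPKM in control Jinsha libraries, and its Jinlan libraries had 432, 393 and 457 FPKM when diseased and 454, 467 and 403 FPKM in controls. Its level in Jinlan thus overlapped with that of diseased Jinsha fruit whether or not the Jinlan fruit was diseased. The second averaged 323 ± 11.9 FPKM in diseased and 761 ± 42.8 FPKM in control Jinsha fruit, with 365 ± 7.11 and 441 ± 34.5 FPKM in diseased and control Jinlan fruit (SD, n = 3 each). The third averaged 163 ± 4.29 FPKM in diseased and 458 ± 63.0 FPKM in control Jinsha fruit, but 822 ± 73.7 and 786 ± 44.3 FPKM in diseased and control Jinlan fruit (SD, n = 3 each). For that gene every Jinlan library lay above every Jinsha library.

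Most members changed moderately in Jinsha. The change was above -1.5 in 189 members, between -2 and -1.5 in 53, and -2 or less in 23. The control mean was a median of 2.72 times the diseased mean, with quartiles of 2.35 and 3.41. The largest value was 33.8, in a member with means of 0.159 FPKM in diseased and 5.36 FPKM in control Jinsha fruit. Across members the median level was 6.35 FPKM in the mean of diseased Jinsha fruit and 17.7 FPKM in that of control Jinsha fruit. Between 156 and 159 members reached 5 FPKM in a diseased Jinsha library, against 258 to 263 in a control Jinsha library. In Jinlan, 209 or 210 members reached 5 FPKM in a diseased library and 212 to 214 in a control library.

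In Jinsha, 263 of the 265 members were called lower in diseased fruit, where 30.9% of all tested genes were. In 264 members every diseased library lay below every control library, which held for 33.9% of tested genes. The rule used this contrast, so these counts describe the choice. The call was missed by 2 members, whose replicates differed widely or held a value at 0. One had 1.35, 41.9 and 0.808 FPKM in diseased Jinsha replicates 1 to 3, against 62.8, 62.6 and 0.526 FPKM in control Jinsha replicates 1 to 3. The other had 9.50 and 8.11 FPKM in diseased Jinsha replicates 1 and 2 and was listed at 0 in replicate 3, against 14.7, 15.5 and 13.4 FPKM in control libraries. This gene was also listed at 0 in Jinlan control replicate 1, beside 12.3 and 12 FPKM in Jinlan control replicates 2 and 3. No other member had a value listed at 0.

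Cg6g006260 and Cg6g006320 had the lowest Jinsha log2 fold changes among members called without overlap between the libraries. Cg6g006260 had 5.51, 1.19 and 4.86 FPKM in diseased Jinsha libraries, against 28.7, 32.9 and 36.8 FPKM in control Jinsha libraries, a log2 fold change of -2.94 (SE 0.31) on the log2(FPKM + 1) scale. Without diseased Jinsha replicate 2, its lowest library, Cg6g006260 had a log2 fold change of -2.45. Its Jinlan libraries had 13.4, 12.5 and 13.4 FPKM when diseased, against 8.93, 13.0 and 12.9 FPKM in controls. All 6 Jinlan values fell in the gap between the Jinsha groups, and the Jinlan groups overlapped with each other. Cg6g006320 had 3.85, 2.23 and 3.82 FPKM in diseased Jinsha libraries, against 27.0, 23.9 and 25.7 FPKM in control Jinsha libraries, a log2 fold change of -2.65 (SE 0.14). Without diseased Jinsha replicate 2 it was -2.46, so the order of these 2 genes rested on that library. In Jinlan Cg6g006320 had 12.1, 11.6 and 12.6 FPKM in diseased libraries, against 8.63, 11.3 and 8.42 FPKM in control libraries. It too lay between the Jinsha groups in every Jinlan library.

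At the low end, 6 members were below 1 FPKM in the mean of diseased Jinsha fruit. In 2 of them both Jinlan means were below 1 FPKM as well. One of these is NewGene_2083, with 0.435, 0.276 and 0.442 FPKM in diseased Jinsha libraries, against 5.54, 4.96 and 5.53 FPKM in control Jinsha libraries. In Jinlan it had 0.363, 0.254 and 0.524 FPKM in diseased libraries, against 0.336, 0.287 and 0.369 FPKM in control libraries. Control Jinsha fruit was thus the group in which this gene stood out, and the other 3 groups overlapped. The other 4 members of this kind had Jinlan means of 1.90 to 6.22 FPKM.

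The rule placed members in a window around no change in Jinlan and did not require that they were unchanged there. With limma, 92 members were called lower in diseased Jinlan fruit, where 30.3% of all tested genes were, and 40 were called higher, where 31.4% were. These counts were 78 and 40 without both Jinlan replicate 3 libraries. With all libraries they are 34.7% and 15.1% of the members, and 133 members were not called. Among the 8975 other genes with a Jinsha control mean of at least 5 FPKM inside the same window, 27.5% were called lower and 26.3% higher. The Jinlan log2 fold change was negative in 159 members and positive in 106, with a median of -0.11, against 0.01 over all tested genes. The members called lower had log2 fold changes of -0.50 to -0.16, and those called higher had 0.17 to 0.49. By these calls the fall of 92 members was not confined to Jinsha, though it was smaller in Jinlan. Their share, 34.7%, was near the 30.3% of all tested genes. The count is therefore a description of the rule's window and gives no trait particular to the members. The difference between the cultivars in the disease change, Jinlan minus Jinsha, was called positive for 262 members, where 31.5% of tested genes were, and the rule sets its sign.

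The members called in Jinlan with the lowest log2 fold changes and no overlap between libraries were Cg6g020670 and Cg8g004140. Cg6g020670 had 41.6, 36.1 and 41.0 FPKM in diseased Jinlan libraries, against 52.4, 60.2 and 56.3 FPKM in control Jinlan libraries, a log2 fold change of -0.50 (SE 0.09). Its Jinsha libraries had 48.7, 38.4 and 39.6 FPKM when diseased, against 89.7, 86.5 and 96.7 FPKM in controls. Diseased fruit of the cultivars thus overlapped, and the control fruit of Jinsha was higher than that of Jinlan. Cg8g004140 had 12.2, 13.9 and 13.5 FPKM in diseased Jinlan libraries, against 18.9, 18.3 and 20 FPKM in control Jinlan libraries (log2 fold change -0.50, SE 0.09). In Jinsha it had 6.36, 5.02 and 5.50 FPKM in diseased libraries, against 14.3, 17.1 and 14.6 FPKM in control libraries. The order of this gene's groups was the same in both cultivars, with the larger gap in Jinsha.

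At the upper side of the window stood Cg3g010150 and Cg5g040250. Cg3g010150 had 27.8, 30.4 and 29.6 FPKM in diseased Jinlan libraries, against 22.8, 19.1 and 20.1 FPKM in control Jinlan libraries, a log2 fold change of 0.49 (SE 0.07). In Jinsha it had 7.29, 7.08 and 6.78 FPKM in diseased libraries, against 39.6, 34.2 and 34.5 FPKM in control libraries. Its diseased Jinsha values were the lowest of the 4 groups and its control Jinsha values the highest. Cg5g040250 had 14.2, 13.7 and 12.4 FPKM in diseased Jinlan libraries, against 9.79, 8.24 and 10 FPKM in control Jinlan libraries (log2 fold change 0.48, SE 0.10). In Jinsha it had 9.01, 7.68 and 7.70 FPKM in diseased libraries, against 22.4, 24.8 and 18.7 FPKM in control libraries. Control Jinlan fruit overlapped with diseased Jinsha fruit for this gene, with diseased Jinlan fruit between them and control Jinsha fruit.

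Because all 12 libraries had been used to choose the members, the rule was also applied to 2 replicate numbers at a time and the third was described. With replicates 1, 2 and 3 held out in turn, 267, 289 and 278 genes were chosen. In the held-out libraries 82%, 74.4% and 72.3% of them had a Jinsha change of -1 or less, against 6.14%, 5.99% and 5.84% of all tested genes. The median Jinsha change there was -1.27, -1.27 and -1.26. Most of the chosen genes thus passed the Jinsha limit again in libraries that had no part in choosing them. The held-out Jinlan change lay in the window for 82.8%, 75.4% and 85.3% of the chosen genes, against 69.1%, 68.2% and 77.3% of all tested genes. All 3 conditions were met in the held-out libraries by 67%, 57.4% and 59% of the chosen genes, against 1.75%, 1.52% and 1.82% of all tested genes. Tested genes include those below the rule's control level, which the chosen genes had met in the other 2 replicates. The contrast is therefore in part set by level. The Jinlan window, which most tested genes met as well, separated the chosen genes from the rest less than the Jinsha limit did. There is 1 held-out library per group, so no test was made, and separate libraries of a group may come from the same fruit.

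**Figure D3:**
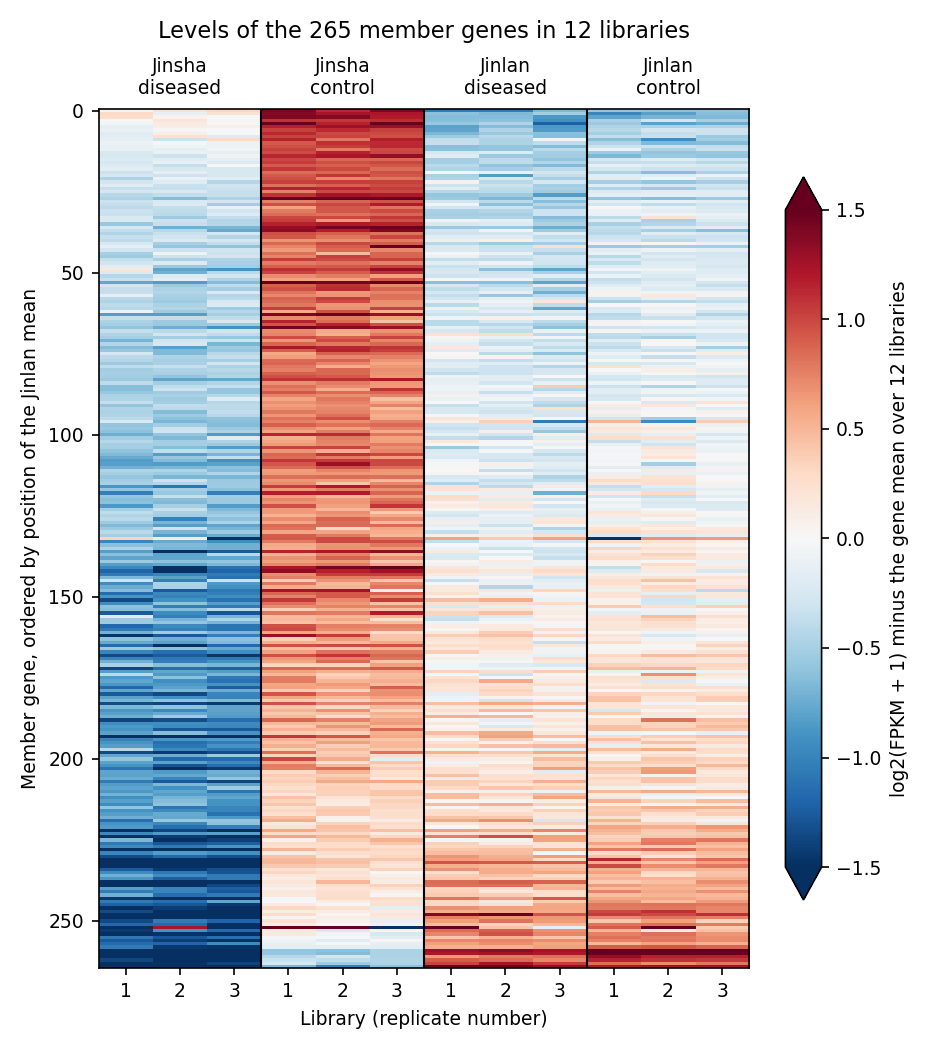
Levels of the 265 members (rows) in the 12 libraries (columns, 3 replicates per group), as log2(FPKM + 1) minus the gene's mean over all libraries. Rows run from members whose Jinlan level is low relative to the Jinsha groups (top) to those whose Jinlan level is high (bottom); Jinlan columns pass from blue to red down the page in diseased and control libraries alike.

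The level at which Jinlan held each member was not set by the window, and it differed widely between members. It is given as a position on the log2(FPKM + 1) scale, with 0 at the mean of diseased Jinsha fruit and 1 at the mean of control Jinsha fruit. The median position of Jinlan, over both its groups, was 0.477, with quartiles of 0.187 and 0.845 and a range from -0.856 to 2.78. It was 0.458 for diseased and 0.523 for control Jinlan fruit. The median position in Jinlan was thus about midway between diseased and control Jinsha fruit in both states, with a wide spread between members. The rule set the Jinsha means apart, which favours Jinlan levels between them, so this position is a description. Of the members, 29 had a position of 0 or below, 107 lay above 0 and up to 0.5, 81 above 0.5 and up to 1, and 48 above 1. The 6 Jinlan libraries were close to each other in this measure. By single libraries the median position was 0.503, 0.463 and 0.458 in diseased Jinlan replicates 1 to 3, and 0.554, 0.547 and 0.496 in control Jinlan replicates 1 to 3. All 6 Jinlan libraries lay strictly between the Jinsha groups for 90 members, which held for 1.69% of tested genes. They lay above every Jinsha control library for 26 members, against 13.5% of tested genes, and below every Jinsha diseased library for 13, against 26.8%. A gene can lie between the Jinsha groups only where these are apart, and the rule chose members whose Jinsha means are. The choice of high control and low diseased Jinsha values also makes Jinlan levels beyond either group less likely. All of these shares are therefore a description.

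The cultivars were compared within control and within diseased fruit to sort the members by these positions. Both comparisons use a Jinsha mean that the rule also used: members needed high control and low diseased values in Jinsha, which favours lower control and higher diseased values in Jinlan. The counts are therefore a description. In control fruit 189 members were called lower in Jinlan than in Jinsha, where 36.8% of all tested genes were, and 35 were called higher, where 21.2% were. That background depended on scaling: after median-ratio scaling 28% of tested genes were lower and 28.5% higher, and after quantile normalization 27.8% and 27.9%, while 177 members were lower and 41 higher under either. In diseased fruit 182 members were called higher in Jinlan, where 28.6% of all tested genes were, and 19 were called lower, where 38.7% were. After median-ratio scaling 32.6% of tested genes were higher and 33.7% lower there, with 194 members higher and 17 lower. After quantile normalization these were 29.6% and 37.8% of tested genes, with 181 and 20 members. Lower calls in Jinlan thus prevailed among members in control fruit and higher calls in diseased fruit, though not always for the same members. The median log2 difference, Jinlan minus Jinsha, was -0.68 in control and 0.61 in diseased fruit, against -0.09 and -0.07 over all tested genes. In the held-out libraries the median for the genes chosen from the other 2 numbers was between -0.67 and -0.58 in control fruit and between 0.58 and 0.60 in diseased fruit.

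Combining the 2 comparisons gave 5 kinds of member and 4 members called in neither. The comparisons share no library, but their calls share an estimate of each gene's spread over all 12 libraries. The most common kind, with 110 members or 41.5%, was lower in Jinlan than in Jinsha in control fruit and higher in diseased fruit, at a median position of 0.501. Of all tested genes, 8.31% were of this kind. Cg6g006260, Cg6g006320, Cg3g010150 and Cg5g040250 belong here. A further 60 members, or 22.6%, were lower in Jinlan in control fruit and not called in diseased fruit, at a median position of 0.108, against 11.2% of tested genes. NewGene_2083, Cg6g020670 and the member with the highest control Jinsha mean are among these. In 37 members the control fruit of the cultivars was not called and Jinlan was higher in diseased fruit (median position 0.924), as in 10.8% of tested genes. Jinlan was higher in both comparisons in 35 members (median position 1.34), a kind that made up 9.47% of tested genes. It was lower in both in 19 members (median position -0.382), against 17.2% of tested genes. The 4 members called in neither compare with 15.7% of tested genes. Both calls use the Jinsha means of the rule, so the shares describe the choice in part.

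**Figure D4:**
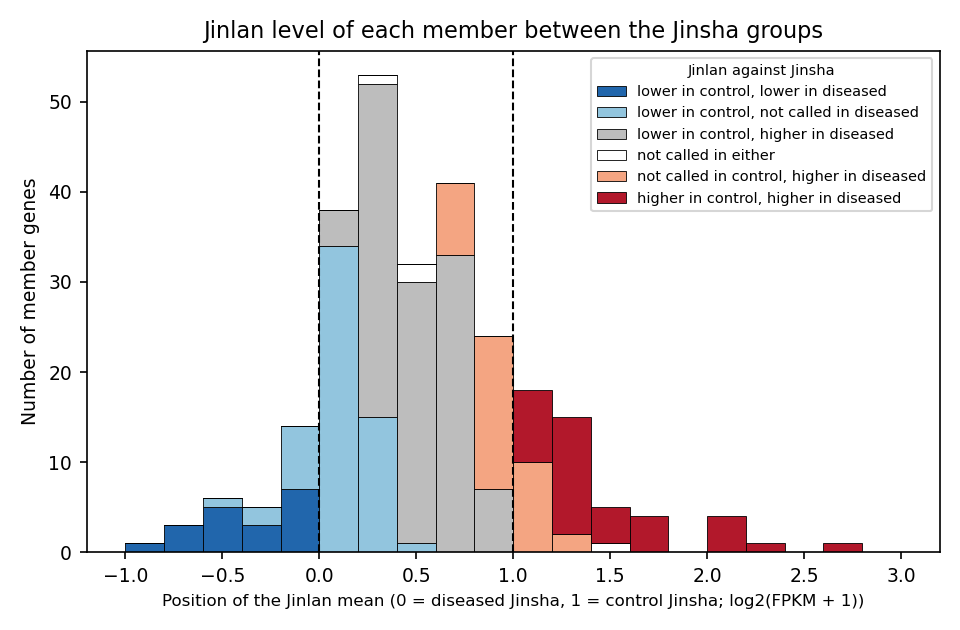
Number of members (y axis) by the position of their Jinlan mean between diseased Jinsha fruit at 0 and control Jinsha fruit at 1 (x axis, dashed lines), coloured by limma's calls of Jinlan against Jinsha in control and diseased fruit. The largest class (grey, 110 members) lies between the dashed lines, with 60 members in light blue mostly near the left line and 35 in dark red above 1.

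Among members lower in Jinlan control fruit, NewGene_2083 had the lowest log2 difference to Jinsha, at -2.25 (SE 0.10), with the values given above. Cg9g006630 followed at -2.12 (SE 0.17), with 11.7, 9.59 and 10 FPKM in control Jinlan libraries, against 55.2, 39.9 and 51.3 FPKM in control Jinsha libraries. Their order depended on the added 1. With 5 added in its place, the difference was -0.956 for NewGene_2083 and -1.79 for Cg9g006630. When diseased, Cg9g006630 had 11.4, 12.5 and 6.90 FPKM in Jinlan and 16.9, 19.0 and 17.3 FPKM in Jinsha. Each of its 6 Jinlan libraries was below each Jinsha library, so the diseased Jinsha level was still above the Jinlan level.

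Cg6g007760 and Cg2g022830 had the lowest differences in diseased fruit. Cg6g007760 had 20.8, 21.0 and 27.4 FPKM in diseased Jinlan libraries, against 45.9, 51.8 and 55.7 FPKM in diseased Jinsha libraries, a log2 difference of -1.12 (SE 0.11). In control fruit it had 29.2, 28.5 and 28.8 FPKM in Jinlan and 119, 98.1 and 121 FPKM in Jinsha. Cg2g022830 had 9.92, 9.88 and 8.47 FPKM in diseased Jinlan libraries, against 19.8, 16.8 and 16.2 FPKM in diseased Jinsha libraries, a log2 difference of -0.83 (SE 0.09). For both genes the Jinsha libraries of either state lay above all Jinlan libraries.

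The opposite arrangement was found in Cg2g040310 and Cg2g040300, which had the highest differences in control fruit. Cg2g040310 had 488, 483 and 476 FPKM in control Jinlan libraries, against 95.4, 94.1 and 103 FPKM in control Jinsha libraries, a log2 difference of 2.29 (SE 0.08). When diseased it had 351, 368 and 344 FPKM in Jinlan and 29.9, 22.8 and 24 FPKM in Jinsha, a log2 difference of 3.75 (SE 0.08). Every Jinlan library was thus above every Jinsha library, and diseased fruit was below control fruit in both cultivars. Cg2g040300, next to it by identifier number, had 484, 445 and 488 FPKM in control Jinlan libraries, against 100.5, 95.7 and 108 FPKM in control Jinsha libraries (log2 difference 2.21, SE 0.13). When diseased it had 350.1, 358 and 349 FPKM in Jinlan and 39.4, 24.3 and 28.2 FPKM in Jinsha. The levels of these neighbours were close in every group, and whether reads were shared between similar copies was not tested.

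In diseased fruit Cg1g023820 had the highest log2 difference, at 3.76 (SE 0.13). It had 73.4, 79.8 and 54.3 FPKM in diseased Jinlan libraries, against 4.94, 3.35 and 4.22 FPKM in diseased Jinsha libraries. In control fruit it had 58.5, 56.0 and 60.9 FPKM in Jinlan and 33.6, 28.1 and 31.6 FPKM in Jinsha. The Jinlan groups overlapped, and the gene was lowest in diseased Jinsha fruit and highest in Jinlan.

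**Figure D5:**
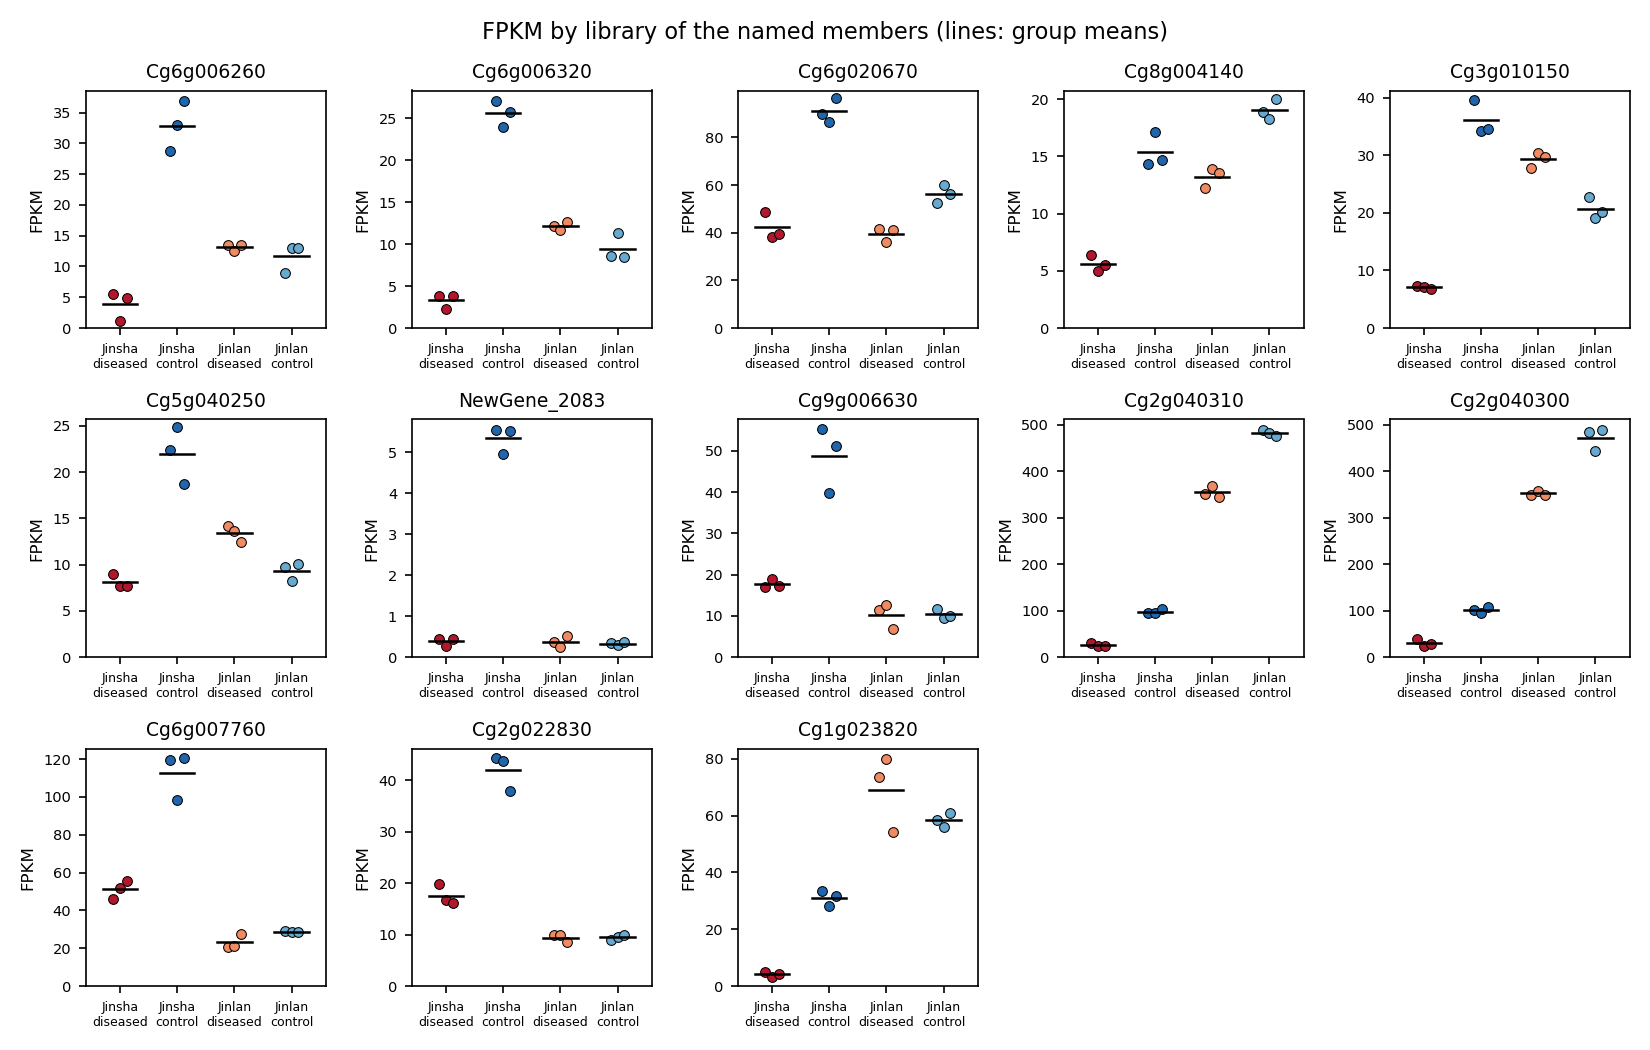
FPKM (y axis, from 0, a separate scale for each gene) of the 13 named members in diseased Jinsha, control Jinsha, diseased Jinlan and control Jinlan libraries (points: 3 libraries per group, lines: group means). Diseased Jinsha points lie below control Jinsha points in all 13 genes, while Jinlan points lie below both Jinsha groups in Cg9g006630, Cg6g007760 and Cg2g022830 and above both in Cg2g040310, Cg2g040300 and Cg1g023820.

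Levels and calls in Jinlan were then set beside those of the other genes that met the Jinsha limit. The median Jinsha change was -1.27 in members, -1.60 in the 385 genes with a Jinlan change below -0.5 and -1.23 in the 103 genes with one above 0.5. The median control level was 11.8 FPKM in Jinlan and 17.7 FPKM in Jinsha among members, and 24.5 FPKM in Jinlan and 24.9 FPKM in Jinsha among the 385 genes with a Jinlan change below -0.5. Jinlan control fruit was called lower than Jinsha control fruit for 71.3% of members, 44.7% of those 385 genes and 73.8% of the 103 genes with a Jinlan change above 0.5, against 41.4% of all genes with that Jinsha control level. In diseased fruit Jinlan was called higher for 68.7%, 44.4% and 95.1% of the same sets, against 27.1% of all genes at that level. The share of the 385 genes called lower in control fruit was thus close to that of all genes. In the same comparison 30.1% of them were called higher, against 20.9% of all genes at that level. The sets were cut by the Jinlan change, which contains the Jinlan control level, so these shares are a description and were not tested against each other.

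The members were spread over all identifier prefixes. They made up 2.14% of the 12392 genes with a Jinsha control mean of at least 5 FPKM, and between 1.47% (prefix Cg9g) and 4.17% (prefix CgUng, 11 members) by prefix. Prefix Cg6g had 35 members, 3.15% of its 1111 genes at that level. Members with neighbouring identifier numbers formed 10 pairs, 4 of them in prefix Cg6g, and no longer run. These counts say nothing about distance, since no genome positions were used.

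The densest group of members was found around Cg6g006260 and Cg6g006320, and was singled out after the values had been seen. There, 8 identifiers in a row had a Jinsha change of -1.5 or less, and 4 of them were members, with Jinsha changes of -2.80 to -1.92 and Jinlan changes of -0.36 to 0.33. The 4 others, placed among them, had Jinsha changes of -2.45 to -1.58. Of these, 3 had Jinlan changes of -1.37 to -1.07 and 1 had a Jinlan change of 0.87, which kept all 4 out of the Jinlan window. The row was bounded by the fall in Jinsha, and the Jinlan window then split it into members and others. The shared fall and the difference in Jinlan are therefore set by the choice. The 4 identifiers next to the row had Jinsha changes of -0.77 to 0.00. Most of them were at or below 1.37 FPKM in every Jinsha library, where the added 1 keeps any change small. The best expressed of them, with the change of -0.77, had 5.74, 6.43 and 7.11 FPKM in diseased Jinsha libraries. Its control Jinsha libraries had 12.1, 11.4 and 11.4 FPKM. The row's edges therefore rest largely on genes too low to show a fall. Whether neighbouring genes of this row are similar copies that share reads was not tested.

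The spread between replicates was described by the coefficient of variation. Among genes with a group mean of at least 5 FPKM, the median coefficient of variation in diseased Jinsha fruit was 8.61% for members and 5.75% for all genes at that level. It was 7.41% and 5.68% in control Jinsha fruit, 8.25% and 5.37% in diseased Jinlan fruit, and 6.31% and 5.65% in control Jinlan fruit. All genes include the members here and were not matched for level. In diseased Jinsha fruit the median level was 6.35 FPKM over all members and 19.3 FPKM over all genes with a Jinsha control mean of at least 5 FPKM. These levels are over other sets than the coefficients, which in diseased Jinsha fruit used 161 members and 12028 genes. No test was made.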

How the data were processed

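The authors deposited 1 table of FPKM values for 32863 identifiers in 12 libraries, and all 12 columns were matched to samples by their titles. Per the labels' protocols, a Qiagen RNeasy kit yielded the total RNA and a SMARTER kit the mRNA libraries. The aligner, genome build, annotation and counting method were not given in the sources used here. FPKM are relative to all other transcripts of a library. The table holds no counts and low values showed no steps of whole reads (at most 1.51% of low ratios between libraries shared a value to 2 decimals), so depth is unknown. No genome was used, and 0 identifiers were matched to names. No 2 libraries had more than 0.00479% identical nonzero values. Where nothing says that replicates are separate fruits, the spread between them may be technical.

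Values were transformed to log2(FPKM + 1), which understates changes of low genes. A linear model of 4 group means was fitted to 17120 genes with limma 3.58.1 under R 4.3.3 (moderated with a mean-variance trend, Benjamini-Hochberg adjustment over all genes tested) and was tested on simulated data. Figures were drawn with matplotlib 3.10.9.

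The members, and all lists and rules, were chosen with earlier results of these data known. Named genes are at most 2 per direction and comparison: the extreme log2 fold changes among called members with at least 5 FPKM in the higher group and no overlap between libraries. Each fold change is given with its SE and without a p-value, since the rule used its groups. Planned lists of genes by function could not be used without names. Alternatives were pseudocounts of 0.1 and 5, filters, scalings, limits of the rule, fits to the compared groups alone, no variance trend, leaving out libraries, and a block for replicate numbers.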

Additional observations from a re-analysis of the deposited data

Results flagged for a closer look

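The disease change differed between the cultivars, by limma's interaction term (Jinlan change minus Jinsha change), for 262 of the 265 members, each with the higher (more positive) change in Jinlan, where 31.5% of all tested genes were. The rule sets a gap of at least 0.5 between these changes, so the count describes the choice and adds no support. The 3 members not called include the 2 that also missed the call in Jinsha.

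Among the named members the log2 difference was 3.12 for Cg6g006260, 2.99 for Cg6g006320, 2.86 for Cg1g023820, 2.69 for Cg3g010150 and 2.25 for NewGene_2083. It was 1.80 for Cg5g040250, 1.45 for Cg2g040310, 1.34 for Cg9g006630, 1.30 for Cg2g040300 and 1.21 for Cg2g022830. The smallest were 0.81 for Cg8g004140, 0.80 for Cg6g007760 and 0.60 for Cg6g020670.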

How the results depend on the processing

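The number of members depended on the limits of the rule. It was 145 with a pseudocount of 5 (117 of the 265 among them), 131 with a Jinlan window of 0.25 to either side of 0 and 449 with a window of 1, and 256 to 293 without single libraries. Without each library in turn 189 of the 265 stayed members every time. The median position of Jinlan, recomputed after the data had been seen, was 0.528 after median-ratio scaling, 0.518 after quantile normalization, and 0.452 to 0.504 without single libraries. For the 265 members, each count of calls stayed within 1.5 times of its reported value under all alternatives run. Without single libraries, members called lower in diseased Jinlan fruit numbered 76 to 96 and those called higher 29 to 44. Each named member kept its direction and call in its own comparison under the alternatives run, except that NewGene_2083 was not tested with a filter of 5 FPKM in 3 libraries, which removed it. Same-numbered libraries did not deviate together (correlations of -0.157 to 0.0398), so the numbers are not taken as pairs. With the replicate block, 263 members were lower in Jinsha, 89 lower and 39 higher in Jinlan, 188 lower and 33 higher in Jinlan control than in Jinsha control fruit, 181 higher and 20 lower in diseased fruit, and 261 in the interaction. Depth is unknown, so the counting error of low values could not be estimated.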
